A study of Mus musculus with 2 samples.

Results

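Chemokine and colony-stimulating factor genes were compared between cultured tracheal epithelial cells of Gprc5a-/- mice and of Gprc5a+/+ mice. Chemokines were taken as all genes whose only symbol on the array platform was Cxcl, Ccl, Cx3cl or Xcl followed by a number, with the platelet chemokine genes Pf4 and Ppbp, and the colony-stimulating factor genes Csf1, Csf2 and Csf3 were added. This gave 36 genes among 14860 measured, each with 1 probe set. The sets for Cxcl3 and Ccl6 were shared with a neighbouring gene and Ccl19 had none with a symbol of its own, so these 3 genes were not counted.

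The knockout cells lacked both alleles of Gprc5a, a receptor of the G protein-coupled kind without a known ligand, whose gene responds to retinoic acid and is typical of lung epithelium, and the wild-type cells carried both. The mice of both genotypes had a C57 BL/6 × 129sv background and an age of 3 weeks, and all cells received no treatment. They were harvested in exponential growth in K-SFM, a serum-free keratinocyte medium, with epidermal growth factor at 5 ng/ml and bovine pituitary extract at 50 µg/ml. Each genotype was represented by 1 array of total RNA, and how many animals gave the cells of each culture is not given in the sources used here. With 1 array per genotype there was no test, no error and no replicate check, so every difference below describes these 2 cultures, and whatever separated them besides the genotype cannot be told apart from it.

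Chemokines are small secreted proteins that bind G protein-coupled receptors on leukocytes and draw these cells along a gradient. CXC chemokines with a glutamate-leucine-arginine stretch before their first cysteines attract neutrophils through the receptor CXCR2, whereas most other CXC and CC chemokines act on lymphocytes, monocytes, dendritic cells or eosinophils. Colony-stimulating factors act on the growth, survival and differentiation of myeloid cells. Airway epithelium is known as a source of both kinds of signal, and many of these genes are known targets of NF-kB or of interferons.

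Values are log2 signals of a probe set as deposited, and each difference subtracts the wild-type from the knockout value. Probe sets of different genes do not share a scale, so differences were taken within a gene. A signal summed over a list was compared between the samples for that list only. The cut-offs that follow, and the choice of the brightest genes of a list, treat all genes alike and are rough marks for a single gene. A level of 5.05, the 95th percentile of 800 olfactory and vomeronasal receptor genes, marked the range of unexpressed genes and is called background below. A gene was counted as different at 2-fold or more when its higher value also exceeded 6.76, the median over both arrays of the probe sets that carry a symbol. Gprc5a itself had a value of 4.05 in the knockout sample and 9.49 in the wild-type sample, a difference of -5.44. The knockout value was below background, and raised to it the difference was -4.43. The epithelial identity of both cultures was checked with 8 measured markers, of which 7 exceeded the level limit in both samples. Krt5, a keratin of basal cells, was at 12.62 in knockout and 12.71 in wild-type cells, and Epcam, an epithelial adhesion protein, was at 11.89 in knockout and 12.30 in wild-type cells. The exception was Ngfr, a receptor of airway basal cells, at 5.66 in knockout and 5.98 in wild-type cells.

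Of the 36 genes, 4 were higher at 2-fold or more in the knockout sample by this rule, namely Ccl28, Csf1, Cxcl5 and Csf3, and 2 were lower, namely Ppbp and Ccl25. Over all 14860 genes the same rule called 2.47% higher and 1.59% lower. The median difference of the 36 genes was 0.01, against -0.03 over all genes. Of the 36 genes, 19 had a higher and 17 a lower value in the knockout sample, against 6835 higher and 8023 lower over all genes. In 18 of the 36 genes both values were at or below background, so the median rests in large part on differences within the range of unexpressed genes. Without the level limit, 6 genes were at least 2-fold higher and 2 were lower, where 3.34% of all genes were higher and 2.11% lower. The additional 2 genes were Cxcl14 and Ccl9. Cxcl14 lay just outside the level limit with a higher value of 6.67, and Csf3 lay just inside it with 6.99. Of the 9 genes that passed the limit, Ccl28, Cxcl5 and Csf3 passed by their knockout value alone and Ppbp by its wild-type value alone, so that for these genes passing and differing are linked.

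**Figure D1:**
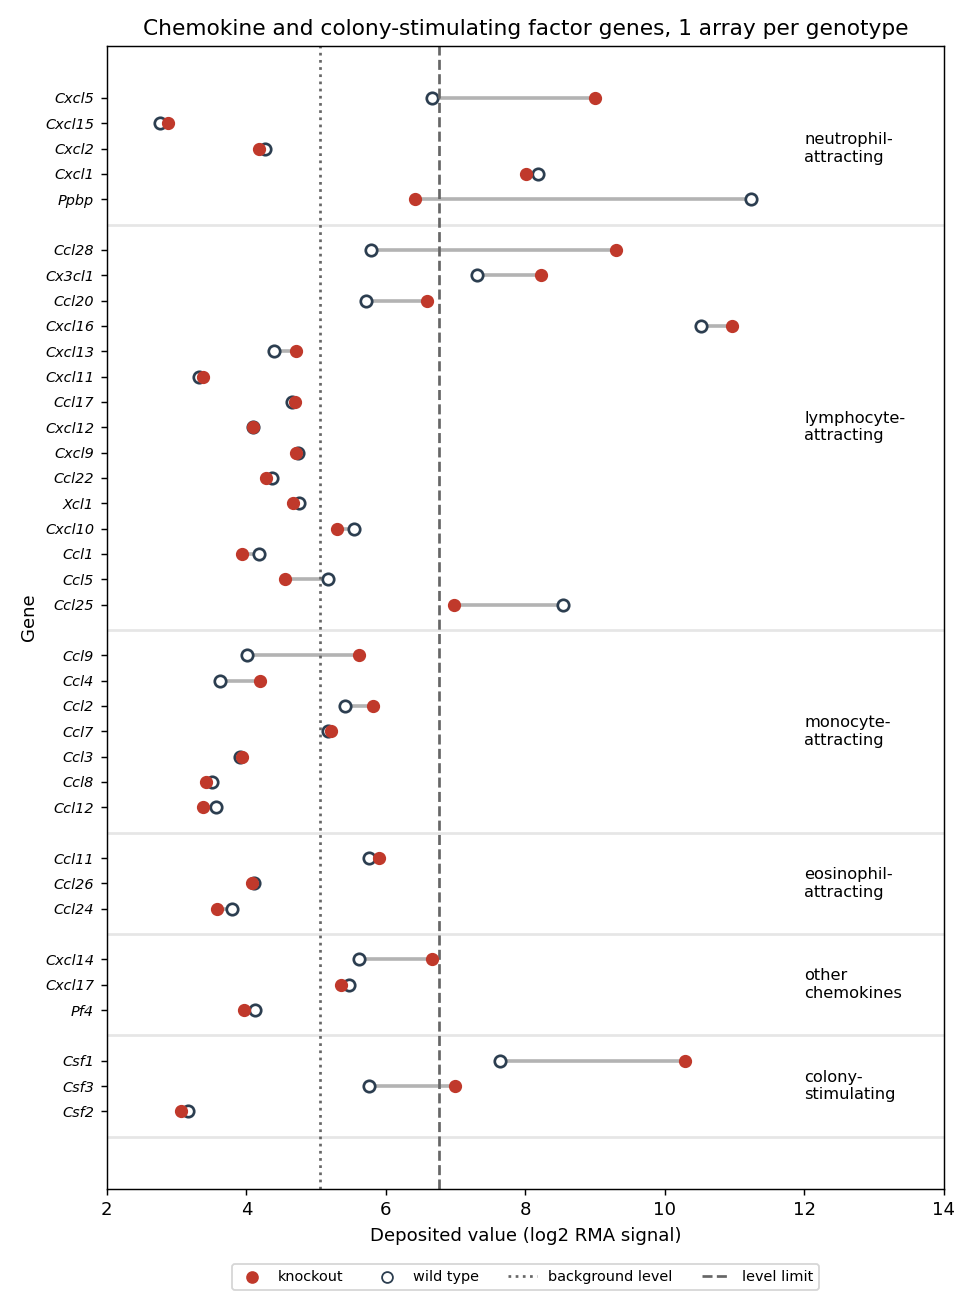
Deposited log2 values of the 36 genes, grouped by the cells their products are known to attract or act on. Filled red points are the knockout array and open points the wild-type array, the grey bar joins both values of a gene, the dotted line is the background level of 5.05 and the dashed line the level limit of 6.76. The widest bars belong to Ppbp, Ccl28, Csf1 and Cxcl5, and 18 genes lie at or left of the dotted line in both samples.

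Among the neutrophil-attracting genes, Ppbp and Cxcl5 stood out, and they differed in opposite directions. Ppbp encodes pro-platelet basic protein, a precursor that is cut to the neutrophil chemokine CXCL7 and is best known from platelet granules. It had a value of 6.42 in the knockout sample and 11.23 in the wild-type sample, a difference of -4.81 or 28.03-fold. The wild-type value was far above background and the knockout value remained above it. Only 0.0673% of all 14860 genes had a lower difference. Cxcl5 encodes an epithelial neutrophil chemokine also known in mouse as LIX, and its value was 8.997 in the knockout sample and 6.67 in the wild-type sample, a difference of 2.33 or 5.03-fold.

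The remaining neutrophil chemokines were close between the cultures. Cxcl1, known as KC in mouse and an acute signal for neutrophils, was at 8.02 in knockout and 8.18 in wild-type cells, a difference of -0.16. Both values were above the level limit, so this gene had signal in both cultures and differed little. Cxcl2, known as MIP-2 and close to Cxcl1 in sequence, was at 4.18 in knockout and 4.26 in wild-type cells, and Cxcl15, known as lungkine, was at 2.88 in knockout and 2.77 in wild-type cells. Both of these genes were below background in both samples. The probe set shared by Cxcl3 and Cxcl15 was at 3.16 in knockout and 3.02 in wild-type cells, also below background.

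Ppbp and Cxcl5 are direct neighbours. In the order of the RefSeq gene table (GRCm38.p6), chromosome 5 carries Cxcl5, Ppbp, Pf4, Cxcl3, Cxcl15, Cxcl1 and Cxcl2 with no other gene between them. The differences along this row were 2.33 for Cxcl5, -4.81 for Ppbp, -0.15 for Pf4, 0.11 for Cxcl15, -0.16 for Cxcl1 and -0.08 for Cxcl2. Pf4 encodes platelet factor 4, the platelet chemokine stored together with the Ppbp product, and it was below background at 3.97 in knockout and 4.12 in wild-type cells. Within the cluster the large differences were those of the first pair of genes in this order, and they had opposite signs.

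**Figure D2:**
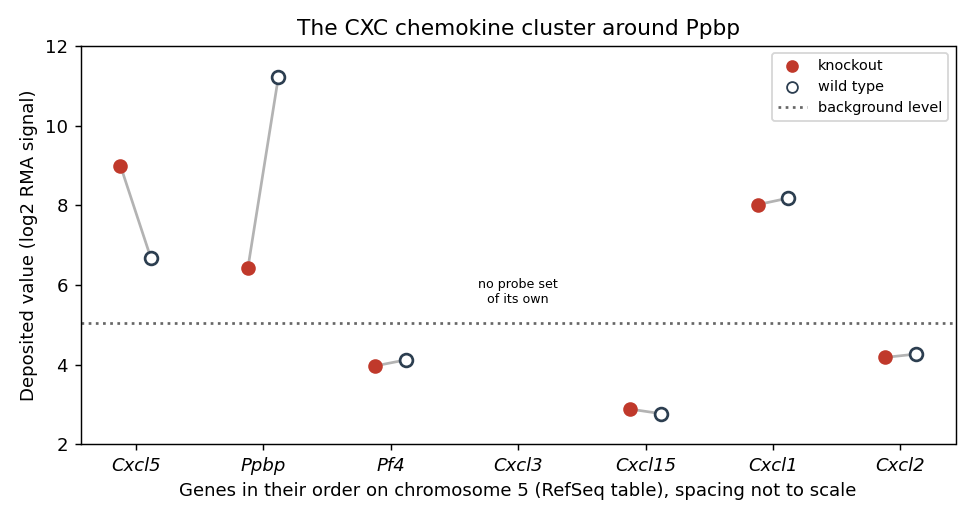
Deposited log2 values of the CXC chemokine cluster in gene order, with the knockout array (filled) left of the wild-type array (open) for each gene and the background level as a dotted line. Cxcl5 is higher and its neighbour Ppbp lower in the knockout sample, while Cxcl1, Cxcl2, Cxcl15 and Pf4 differ by less than 0.2.

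Because Ppbp and Pf4 are adjacent and share a known platelet origin, the 250 bases before their starts are shown from RefSeq (GRCm38.p6). Both lie on the plus strand, Ppbp at chr5:90768268-90768517 and Pf4 at chr5:90772185-90772434. Capitals mark matches, on either strand, to AP-1 (TGANTCA) or TATAAA, and neither window matched the NF-kB motif or an ISRE-like motif of interferon response (GAAA, NN and GAAA in a row).
Ppbp: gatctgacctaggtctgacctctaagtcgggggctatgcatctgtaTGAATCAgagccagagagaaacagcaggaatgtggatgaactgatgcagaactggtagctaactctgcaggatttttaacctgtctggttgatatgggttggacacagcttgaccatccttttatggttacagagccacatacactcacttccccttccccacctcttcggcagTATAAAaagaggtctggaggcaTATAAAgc
Pf4: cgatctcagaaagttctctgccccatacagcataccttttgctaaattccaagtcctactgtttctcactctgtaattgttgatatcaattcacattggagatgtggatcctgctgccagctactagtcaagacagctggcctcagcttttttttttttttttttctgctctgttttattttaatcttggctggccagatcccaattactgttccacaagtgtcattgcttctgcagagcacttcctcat
The Ppbp window held TATAAA starting 30 and 8 bases before the start and an AP-1 match starting 204 bases before it. The Pf4 window held none of these letters. A match is a description of the letters and no evidence of binding. Pf4 was below background in both samples, so its small difference lies within the range of unexpressed genes. The part of these letters in the Ppbp difference was not tested.

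Since the Ppbp product is known from platelets, markers of platelets and megakaryocytes were read beside it. Of 10 such genes 6 had a probe set of their own, Pf4 among them, 4 of these were at or below background in both samples, and none passed the level limit. Their signals, summed after undoing the log2 scale, came to 155 in knockout and 171 in wild-type cells. Itga2b, an integrin subunit of platelets, was above background at 5.89 in knockout and 5.81 in wild-type cells. Leukocyte markers were similar. Of 13 genes 11 were measured, 9 were at or below background in both samples, and their summed signals were 254 in knockout and 268 in wild-type cells. Ptprc, the common leukocyte antigen CD45, was at 3.09 in knockout and 3.13 in wild-type cells. Cd68, a lysosomal protein used as a macrophage marker, was above background at 6.67 in knockout and 6.63 in wild-type cells. As the RNA came from whole cultures, fewer cells making a transcript and less of it per cell cannot be told apart.

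Of the colony-stimulating factors, Csf1 and Csf3 were higher in the knockout sample and Csf2 was below background in both. Csf1 encodes macrophage colony-stimulating factor, on which most tissue macrophages depend. It was at 10.29 in knockout and 7.63 in wild-type cells, a difference of 2.66 or 6.33-fold, and both values were above the level limit. A higher difference was found for 0.498% of all genes. Csf3 encodes granulocyte colony-stimulating factor, which drives neutrophil production, and was at 6.99 in knockout and 5.76 in wild-type cells, a difference of 1.23 or 2.35-fold. Csf2 encodes granulocyte-macrophage colony-stimulating factor and was at 3.06 in knockout and 3.17 in wild-type cells. The median difference of the 3 genes was 1.23.

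The window before the Csf1 start, which lies on the minus strand at chr3:107760470-107760719, is shown because it held an NF-kB match. Of the 6 genes counted as different, 4 had a promoter in the RefSeq table, and the other 3 of these held no such match. Capitals mark that match, which lies on the other strand and starts 154 bases before the gene's start.
Csf1: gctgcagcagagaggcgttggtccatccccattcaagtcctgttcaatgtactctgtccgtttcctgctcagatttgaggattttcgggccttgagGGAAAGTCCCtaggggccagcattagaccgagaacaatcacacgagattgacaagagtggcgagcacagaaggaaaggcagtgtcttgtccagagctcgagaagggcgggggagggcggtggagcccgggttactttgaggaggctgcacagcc
The NF-kB motif was found in 7 of 25 windows of member genes, or 28%, and in 7.25% of all 32851 windows of the table. Cxcl1 and Cxcl2 also held it, and their differences were -0.16 and -0.08. The other holders were Ccl9 with a difference of 1.60, Ccl20 with 0.86, and Ccl1 and Cxcl10 with -0.24 each. Cxcl2 and Ccl1 were below background in both samples, and Ccl9 was below it in the wild-type sample. The part of this motif in the differences was not tested. TATAAA was found in 36% of member windows and 12.4% of all windows. AP-1 was found in 12% of member windows and 6.75% of all windows, and the ISRE-like motif in 8% of member windows and 2.98% of all windows. All motifs were searched on both strands. Matches of different motifs did not overlap in any member window.

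Fibroblasts are another known source of Csf1 and of several CC chemokines, so their markers were read as well. All 10 were measured, 5 were at or below background in both samples and 2 passed the level limit. Postn, the matrix protein periostin, was at 8.46 in knockout and 4.28, below background, in wild-type cells, a difference of 4.18. Fbln2, the matrix protein fibulin-2, was at 10.51 in knockout and 9.47 in wild-type cells, a difference of 1.04. The collagen genes Col1a1 (6.09 in knockout and 6.15 in wild-type cells), Col1a2 (5.74 in knockout and 5.98 in wild-type cells) and Col3a1 (5.21 in knockout and 5.37 in wild-type cells) were slightly lower in knockout cells. Of the 10 markers 7 had a lower value in knockout cells, and the median difference was -0.13. Among these 7, Lum, Pdgfrb, Thy1 and Dcn were below background in both samples. With low values raised to background the median of the list was 0. The summed signal of the list was 2070 in knockout and 1010 in wild-type cells, a gap that came from Postn and Fbln2. The part of Postn and Fbln2 in the Csf1 difference was not tested. Endothelial markers had summed signals of 197.5 in knockout and 208 in wild-type cells, and none of 8 passed the level limit.

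Among 15 lymphocyte-attracting genes, Ccl28 was higher and Ccl25 lower in the knockout sample at 2-fold or more, and 13 lay between. Ccl28 encodes a chemokine of mucosal epithelia that attracts antibody-secreting cells and T cells through CCR10. It was at 9.30 in knockout and 5.79 in wild-type cells, a difference of 3.51 or 11.4-fold, the highest of the 36 genes. Ccl25 encodes the ligand of CCR9 that guides T cells to the thymus and small intestine, and was at 6.97 in knockout and 8.53 in wild-type cells, a difference of -1.56 or 2.95-fold. These 2 homeostatic mucosal chemokines thus differed in opposite directions.

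Their upstream windows are shown for comparison with Ppbp and Csf1, Ccl28 at chr13:119623569-119623818 and the Ccl25 start that holds a TATAAA match at chr8:4349338-4349587, both on the plus strand. Capitals mark TATAAA, and no other motif searched was found in either.
Ccl28: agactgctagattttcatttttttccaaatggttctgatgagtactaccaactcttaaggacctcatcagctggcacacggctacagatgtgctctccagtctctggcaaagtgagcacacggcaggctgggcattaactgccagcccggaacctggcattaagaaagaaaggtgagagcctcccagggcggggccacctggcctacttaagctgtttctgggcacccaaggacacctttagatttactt
Ccl25: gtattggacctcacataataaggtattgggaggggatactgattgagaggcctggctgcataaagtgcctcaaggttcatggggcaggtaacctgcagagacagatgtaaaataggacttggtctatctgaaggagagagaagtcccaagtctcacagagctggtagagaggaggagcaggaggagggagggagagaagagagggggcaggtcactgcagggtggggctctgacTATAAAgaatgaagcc
The table lists another start of Ccl25 farther upstream, whose window held none of the motifs, and which start the cultures used was not measured here.

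The membrane-bound chemokines had signal in both cultures. Cxcl16, which is made as a transmembrane protein and binds CXCR6 on T cells, was at 10.97 in knockout and 10.52 in wild-type cells, a difference of 0.45. Cx3cl1, fractalkine, which tethers cells carrying CX3CR1, was at 8.22 in knockout and 7.31 in wild-type cells, a difference of 0.92 or 1.89-fold. Both were above the level limit in both samples and neither reached 2-fold. Ccl20, the ligand of CCR6 on dendritic cells and lymphocytes, was near the level limit at 6.59 in knockout and 5.72 in wild-type cells, a difference of 0.86.

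The interferon-induced ligands of CXCR3, which attract effector T cells, were dim in both cultures. Cxcl10 was at 5.30 in knockout and 5.54 in wild-type cells, a difference of -0.24. Cxcl9 was at 4.71 in knockout and 4.74 in wild-type cells, and Cxcl11, annotated by RefSeq as a transcribed pseudogene in C57BL/6J, was at 3.38 in knockout and 3.32 in wild-type cells. Ccl5, known as RANTES, had a knockout value of 4.55, below background, and a wild-type value of 5.17, just above it. With the knockout value raised to background its difference of -0.62 became -0.12. Cxcl12, Cxcl13, Ccl1, Ccl17, Ccl22 and Xcl1 were below background in both samples, with differences from -0.24 for Ccl1 to 0.31 for Cxcl13.

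Neutrophil-attracting and lymphocyte-attracting genes were then set against each other. Each class held genes that differed in either direction. The median difference was -0.08 over 5 neutrophil-attracting genes and 0.0014 over 15 lymphocyte-attracting genes, so that the classes differed by -0.09. Of these genes, 2 of the 5 neutrophil-attracting and 8 of the 15 lymphocyte-attracting ones were at or below background in both samples. Over the genes past the level limit alone, a choice that favours genes that differ, 3 neutrophil-attracting and 4 lymphocyte-attracting genes were left. Their medians were -0.16, which is the value of Cxcl1 alone, and 0.68, and the classes differed by -0.85. With so few genes these medians describe single genes rather than the classes. The mean difference was -0.52 for the neutrophil-attracting genes and 0.22 for the lymphocyte-attracting genes, and the first of these includes Ppbp at -4.81. Each class held 1 gene counted as higher and 1 counted as lower. The range was -4.81 to 2.33 in the neutrophil-attracting class and -1.56 to 3.51 in the lymphocyte-attracting class, so the ranges overlapped. Genes are not replicates of a genotype, and the difference between the classes was not tested.

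**Figure D3:**
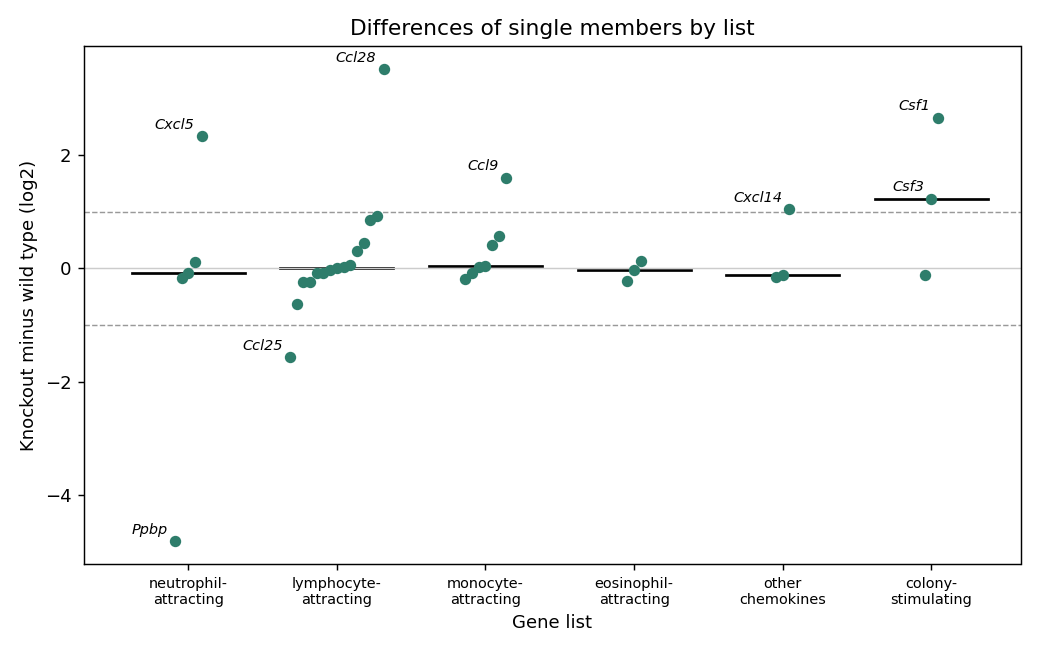
Knockout minus wild-type difference on the log2 scale for each gene, by list, with 1 point per gene, black bars for list medians and dashed lines at 2-fold. Neutrophil-attracting genes have a median of -0.08 and lymphocyte-attracting genes of 0.0014, and each of these lists holds 1 gene beyond 2-fold on either side.

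Monocyte-attracting genes were near or below background. None of 7 passed the level limit. Their median difference was 0.05, and 0.23 with the probe set shared by Ccl6 and Ccl9 added. Ccl2, known as MCP-1 and the main ligand of CCR2 on monocytes, was at 5.82 in knockout and 5.41 in wild-type cells, a difference of 0.41. Ccl7, another ligand of CCR2, was at 5.22 in knockout and 5.17 in wild-type cells. Ccl9, a ligand of CCR1 in mouse, was at 5.62 in knockout cells and at 4.01, below background, in wild-type cells. Its difference was 1.60, and 0.56 with the wild-type value raised to background. Ccl3, Ccl4, Ccl8 and Ccl12 were below background in both samples, with differences from -0.18 for Ccl12 to 0.57 for Ccl4.

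Eosinophil-attracting and unclassed chemokines differed little apart from Cxcl14. Ccl11, eotaxin, was at 5.90 in knockout and 5.76 in wild-type cells, while Ccl24 (3.57 in knockout and 3.80 in wild-type cells) and Ccl26 (4.08 in knockout and 4.10 in wild-type cells) were below background. Cxcl14, a chemokine that many epithelia make constitutively, was at 6.67 in knockout and 5.61 in wild-type cells, a difference of 1.05 or 2.07-fold, and 0.99 with the columns centred on their medians or quantile-normalized. Cxcl17, a chemokine of mucosal tissue, was at 5.35 in knockout and 5.47 in wild-type cells.

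**Figure D4:**
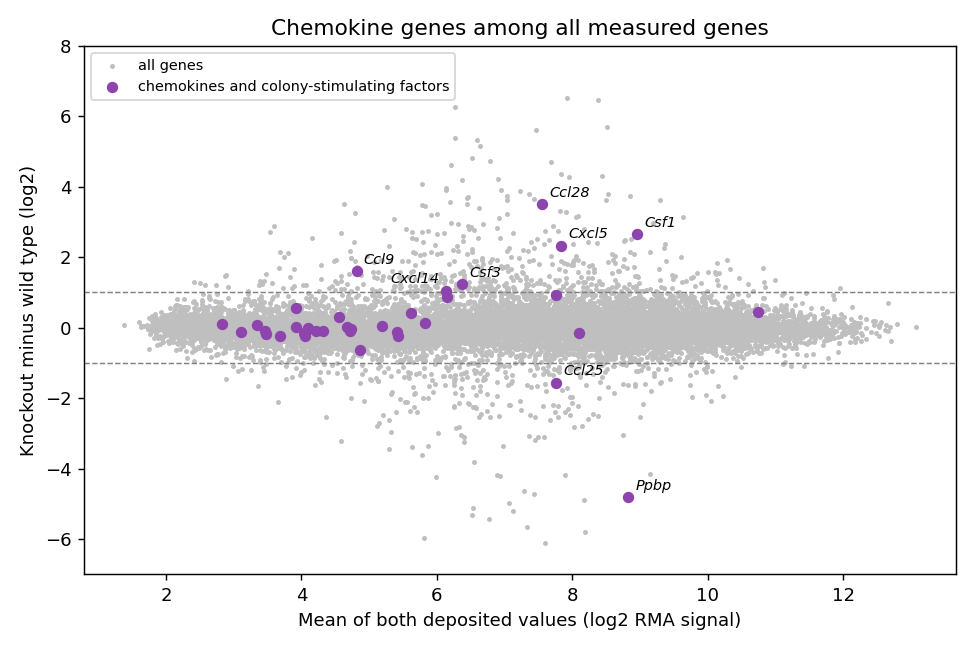
Difference (knockout minus wild type, log2) against the mean of both deposited log2 values for all 14860 genes in grey and the 36 chemokine and colony-stimulating factor genes in purple, with dashed lines at 2-fold and names for genes beyond them. Ppbp at -4.81 lies near the lower edge of all genes, and Ccl28, Csf1 and Cxcl5 lie above 2.

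The receptors for these ligands were mostly at background. Of 27 receptor genes 24 were measured, and none differed by 2-fold. Among all genes, without the level limit, 3.34% were at least 2-fold higher and 2.11% lower, so few would be awaited in a list of this size. Of the receptor genes 17 were at or below background in both samples, and the median difference was -0.13. Of the 24, 8 had a higher and 16 a lower value in knockout cells. Ccr10, the receptor of the Ccl28 product, had the lowest difference, -0.94, at 4.25 in knockout and 5.19 in wild-type cells. Its knockout value was below background, and raised to it the difference was 1.10-fold. Ccrl2 had the highest difference, 0.71, at 5.62 in knockout and 4.92, below background, in wild-type cells. Cxcr2, the receptor of the neutrophil chemokines, was at 4.17 in knockout and 3.96 in wild-type cells. Csf1r, the receptor of the Csf1 product, was at 4.23 in knockout and 4.45 in wild-type cells, and Csf3r, that of the Csf3 product, at 3.83 in knockout and 3.99 in wild-type cells. Ackr3, an atypical receptor that removes CXCL12 from its surroundings, passed the level limit as the only receptor, at 7.54 in knockout and 8.15 in wild-type cells, a difference of -0.61.

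Of all 14860 genes, 2.47% were counted as higher and 1.59% as lower. Among 10 cytokines known to act upstream of or beside chemokines, 1 was counted as higher and none as lower. This was Il1a, the epithelial alarmin interleukin-1 alpha, at 10.0025 in knockout and 7.53 in wild-type cells, a difference of 2.47. Tslp, an epithelial cytokine of type 2 immunity, was at 11.34 in knockout and 12.20 in wild-type cells, a difference of -0.86. The remaining 8 were below the level limit, and Tnf (3.19 in knockout and 3.78 in wild-type cells) and Il1b (3.93 in knockout and 4.27 in wild-type cells) were below background. Of 14 transcriptional regulators and feedback inhibitors 11 were measured, and 1 was counted as higher and 1 as lower. Tnfaip3, an inhibitor of NF-kB signalling that NF-kB itself induces, was at 7.68 in knockout and 6.64 in wild-type cells, a difference of 1.05. Irf9, a subunit of the interferon-activated factor ISGF3, was at 7.22 in knockout and 8.37 in wild-type cells, a difference of -1.15. Stat2 differed the other way, at 8.08 in knockout and 7.46 in wild-type cells, a difference of 0.62. Irf1 was at 6.65 in knockout and 7.64 in wild-type cells, a difference of -0.995, just short of 2-fold. Of the 11 measured regulators, 8 had a higher and 3 a lower value in knockout cells, with a median difference of 0.48. Over all 14860 genes 6835 had a higher and 8023 a lower value, with a median of -0.03. All 11 regulators were above background in 1 or both samples, which does not hold for all genes. Rela, the main activating subunit of NF-kB, was at 10.48 in knockout and 10.24 in wild-type cells.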

How the data were processed

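Total RNA (250 ng per sample, labelled with biotin as sense-strand cDNA) was measured on 2 Affymetrix whole-transcript arrays. The deposited log2 values are RMA summaries per probe set from Affymetrix Expression Console, per the submitters' processing notes. The sources used here do not give versions, filters, the annotation build or whether both arrays were normalized together. RMA as usually run makes the overall level of arrays alike and compresses large ratios. The column medians were 6.04 for the knockout and 5.98 for the wild type, and no detection calls were used. Of 23332 probe sets, 14996 had 1 gene symbol in the platform annotation, 1019 had several and 7317 were unnamed here. The brightest set stood for a gene. All 36 member symbols matched RefSeq by Entrez ID.

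Differences, list medians and counts were computed with Python 3.11.15, pandas 2.3.3 and numpy 2.4.6. The 2-fold counting was run on simulated data with planted differences well past 2-fold. The level limit was not part of that run. The number of arrays limits the precision. Every member was accounted for. Full values were given for members past 2-fold, all neutrophil chemokines and colony-stimulating factors, and the 3 brightest of each other list. Further genes were chosen after their values were seen. The members and lists were chosen with earlier results of these data known. The search of 250 bases before each start used RefSeq promoters of 24 member genes.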

Additional observations from a re-analysis of the deposited data

Results flagged for a closer look

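A probe set that the platform annotation assigns to both Ccl6 and Ccl9 was not counted among the 36 genes because it names no gene alone, and it entered only an alternative median of the monocyte-attracting genes. It was at 5.42 in the knockout sample and 4.86 in the wild-type sample, a difference of 0.56. Its knockout value was above background and its wild-type value below it, so part of this difference lies below background. The set that names Ccl9 alone had a difference of 1.60, and 0.56 with its wild-type value raised to background.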

How the results depend on the processing

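No paired analysis was possible because each genotype had 1 array, and no replicate could be left out. The 4 genes counted as higher stayed within 4 to 6 and the 2 counted as lower stayed at 2 without the level limit, at 1.5-fold, with probe sets averaged, with low values raised to background, with columns centred on their medians and with columns quantile-normalized. A median was called moved when it shifted by more than 0.37, the 68th percentile of absolute differences among the 800 background receptor genes. Taken over genes past the level limit only, which favours genes that differ, the median was 0.92 for all members and 0.68 for lymphocyte-attracting genes, and the neutrophil-attracting minus lymphocyte-attracting difference was -0.85. These values rest on 9 members, of which 3 were neutrophil-attracting and 4 lymphocyte-attracting. No monocyte-attracting gene passed the limit. With means in place of medians, an alternative chosen after seeing the data, the neutrophil-attracting value was -0.52 and the difference between the classes -0.74, as the mean includes Ppbp at -4.81. The small medians changed sign under other settings: centring gave -0.05 for all members, -0.06 for lymphocyte-attracting genes and -0.01 for monocyte-attracting genes, and adding the probe set shared by Cxcl3 and Cxcl15, also chosen later, gave 0.01 for both the neutrophil-attracting genes and the difference between the classes. Adding the set shared by Ccl6 and Ccl9, again chosen later, gave 0.23 for the monocyte-attracting genes. Of 8 genes past 2-fold without the level limit, 7 remained so when low values were raised to background, where Ccl9 became 0.56, and 7 when columns were centred or quantile-normalized, where Cxcl14 became 0.99. Averaging probe sets changed nothing, since each of these genes has 1.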
